A study of Homo sapiens with 5 samples.

Results

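Dual-specificity phosphatases of the MAP kinases were followed through 5 poly(A) RNA-seq libraries from Ishikawa, an established endometrioid endometrial cancer line of human origin. The 10 genes were DUSP1, DUSP4, DUSP5, DUSP6, DUSP7, DUSP8, DUSP10, DUSP14, DUSP15 and DUSP16, taken by symbol from the 57992 genes of the count table. They were chosen by their read counts over the 3 groups in these same libraries, so their differences are a description and carry no test of their own. In co-culture (2 libraries) the cells were kept for 3 days with differentiated adipocytes, separated by a membrane with 0.4 µm pores. In EX527 co-culture (2 libraries) the same arrangement was exposed to the SIRT1 deacetylase inhibitor EX527, with no dose in the labels. In monoculture (1 library) the cells grew alone. No library held EX527 without adipocytes, so EX527 was seen on the co-culture background alone, and the species and line of the preadipocytes are not given in the labels. The preadipocytes had been differentiated with insulin, dexamethasone and IBMX, per the labels. Whether replicates are separate cultures is not stated in the labels, and the spread between them may be technical.

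MAP kinases are switched on by phosphorylation of a threonine and a tyrosine, and dual-specificity phosphatases remove both phosphates. Many of these phosphatases are themselves transcribed in response to MAP kinase signalling and so act as negative feedback. The classical members carry an amino-terminal domain that docks the kinase, and they differ in compartment and in preference. DUSP6 and DUSP7 act on ERK in the cytoplasm, DUSP5 on ERK in the nucleus, DUSP1 and DUSP4 on several MAP kinases in the nucleus, and DUSP8, DUSP10 and DUSP16 mainly on JNK and p38. DUSP14 and DUSP15 are small phosphatases without the docking domain.

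The sequences upstream of 3 of the genes are shown because their start regions hold letter matches to elements named for cAMP response, ETS factors or hypoxia. They come from the RefSeq table of promoters on GRCh38.p14, in which 8 of the 10 genes had a window of 250 bases before to 50 after a start site, 11 windows in all. DUSP4 and DUSP5 had none. The cAMP response element (CRE), TGACGTCA, is capitalised in the upstream stretches of DUSP1 (chr5:172771196-172771445, minus strand) and DUSP8 (chr11:1572272-1572521, minus strand). Each stretch also lies inside an annotated gene of the opposite strand, RP11-779O18.3 at DUSP1 and KRTAP5-AS1 at DUSP8.
DUSP1: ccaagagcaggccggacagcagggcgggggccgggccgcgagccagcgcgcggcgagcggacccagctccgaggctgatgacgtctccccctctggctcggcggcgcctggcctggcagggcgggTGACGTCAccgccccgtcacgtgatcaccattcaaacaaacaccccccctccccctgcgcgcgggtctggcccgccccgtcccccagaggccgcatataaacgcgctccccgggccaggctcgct
DUSP8: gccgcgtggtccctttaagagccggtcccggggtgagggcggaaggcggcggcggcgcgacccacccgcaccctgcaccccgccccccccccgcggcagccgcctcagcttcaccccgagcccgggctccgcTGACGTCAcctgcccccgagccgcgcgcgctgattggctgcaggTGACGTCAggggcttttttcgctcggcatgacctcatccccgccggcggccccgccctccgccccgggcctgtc
The CRE began 125 bases before the start site of DUSP1 and 118 and 74 bases before that of DUSP8. On either strand it was present in 1.85% of all 35116 windows. Of the windows of the 8 genes, those of DUSP1 and DUSP8 held it. Its core TGACG, which the full element contains, was present in 24.6% of all windows and in those of DUSP1, DUSP8, DUSP10 and DUSP15.
Upstream of DUSP15, on chromosome 20 and the minus strand, 2 short stretches are printed: chr20:31870795-31870821 with the ETS core CCGGAAG in capitals, and chr20:31870872-31870896 with CACGT, the reverse complement of the hypoxia element core ACGTG, in capitals. The reverse complement of TGACG overlaps those capitals.
DUSP15 ETS: ccaggcagagCCGGAAGggggacggga
DUSP15 core: ccagccccgtCACGTttctgctaga
Both stretches lie inside the span of TTLL9 on the opposite strand. CCGGAAG was present in 10.3% of all windows and ACGTG in 21.4%, the latter also at DUSP1. The AP-1 element TGANTCA (7.71% of all windows) and the ATF4 and C/EBP element TGATGNAA (3.62%) were in none of the 11 windows. A match of letters is a description of the window and says nothing of a factor's binding.

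Libraries held 45653845 to 52269963 counted reads. At that depth 3 reads, the floor used here, equal 0.0530 to 0.0692 CPM (counts-per-million of the TMM-scaled library size). All 10 genes passed the filter on low counts, with at least 75 reads in every library. Replicates of co-culture were close and those of EX527 co-culture were not. At 11232 well-read genes the SD of the log2 difference between replicates was 0.112 in co-culture and 0.605 with EX527. EX527 co-culture replicate 1 stood apart, with 33325 genes at 10 reads or more against 26022 to 27103 in the other 4 libraries.

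DUSP15 was the gene of the group that stood apart, with a high level in both EX527 libraries and a low one everywhere else. DUSP1, DUSP5 and DUSP8 showed another pattern, low in co-culture and higher both in monoculture and with EX527. DUSP6, by far the most abundant per length, was highest in co-culture. DUSP14 was higher with EX527 than in either other group. DUSP4 had the order of DUSP1, and DUSP7, DUSP10 and DUSP16 differed less or overlapped. Fold changes below come from 1 edgeR fit over all 5 libraries and are given as log2 values with their standard error (SE). The 3 comparisons share libraries, so their values are set side by side and are not independent.

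**Figure D1:**
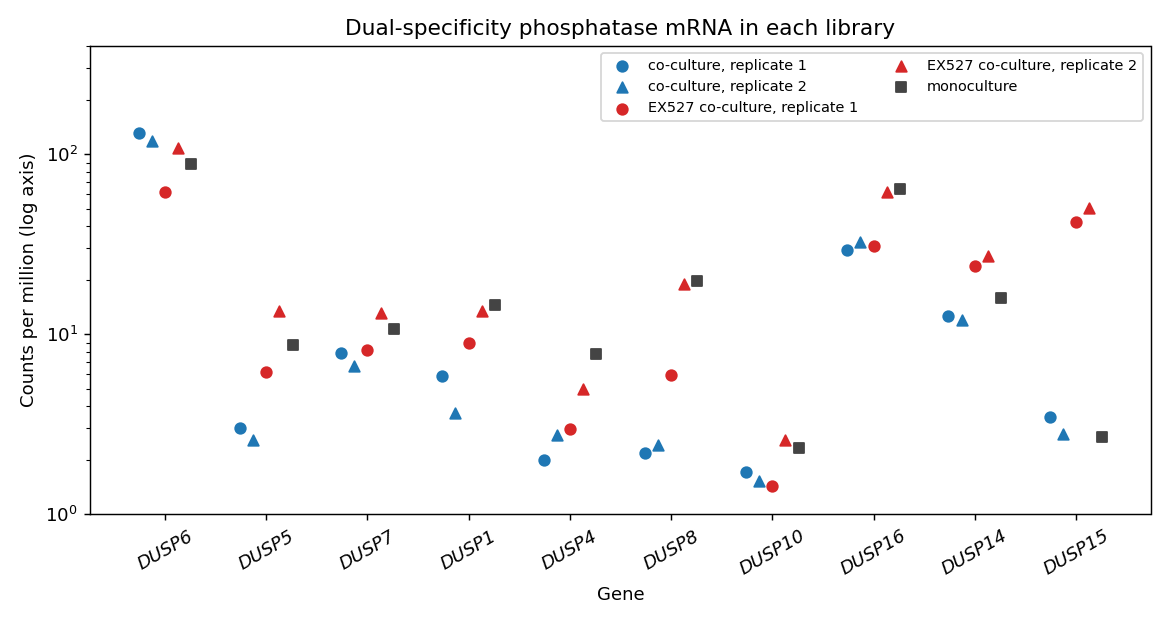
Level of each phosphatase gene, in CPM on a log axis, in each of the 5 libraries. Blue symbols are co-culture, red symbols EX527 co-culture and black squares monoculture, with circles for replicate 1 and triangles for replicate 2. DUSP15 sits at 41.9 and 50.5 CPM in the EX527 libraries and between 2.67 and 3.46 CPM in the other 3.

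DUSP15 (chr20:31847637-31870664, minus strand) is also known as VHY, is anchored to membranes by a myristoyl group and has been studied in oligodendrocytes. It was counted at 154 and 137 reads in the co-culture pair, 2375 and 2374 in the EX527 pair and 116 in monoculture. As levels, these were 3.46 and 2.81 CPM in the co-culture pair, 41.9 and 50.5 in the EX527 pair and 2.67 in monoculture. Both EX527 libraries lay far above the other 3, and the 2 EX527 libraries, which differed widely at many other genes, were near each other here. The log2 fold change was 3.88 (SE 0.27) for EX527 co-culture against co-culture and 4.11 (SE 0.37) against monoculture, which is 14.8-fold and 17.3-fold. Co-culture against monoculture differed by 0.23 (SE 0.38), less than its standard error. Over all 34658 genes tested, its fold change ranked 2590 from the highest for EX527 co-culture against co-culture and 2762 against monoculture. Among the 16029 genes whose mean log2 CPM was 2 or more, the ranks were 8 and 3. The EX527 libraries themselves lifted the mean of DUSP15 past that bound, so nothing is read from these ranks. With EX527 replicate 1 left out the log2 fold change against co-culture was 4.02, and with replicate 2 left out 3.79.

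The genes around DUSP15 on chromosome 20 did not share its pattern of levels. TTLL9, which codes for a member of the tubulin tyrosine ligase-like family, starts from the opposite strand and overlaps the 5′ end of DUSP15 by 31 bases. It stood at 3.48 and 3.51 CPM in the co-culture pair, 3.11 and 1.81 in the EX527 pair and 1.41 in monoculture. Its EX527 libraries lay between the other groups, where those of DUSP15 were highest. On the other side, FOXS1, a forkhead transcription factor, stayed between 0.123 and 0.511 CPM in all 5 libraries. MYLK2, a myosin light chain kinase, stood at 2.05 and 2.75 CPM in the co-culture pair, 0.565 and 0.894 in the EX527 pair and 0.715 in monoculture. TPX2, a spindle assembly factor, was at 260 and 256 CPM in the co-culture pair, 56.2 and 94.9 in the EX527 pair and 155 in monoculture. Both genes were highest in co-culture, the group where DUSP15 was low. PDRG1 stood at 28.8 and 28.0 CPM in the co-culture pair, 35.8 and 41.3 in the EX527 pair and 36.8 in monoculture. XKR7 was at 1.35 and 1.17, then 2.14 and 1.34, and 0.645 CPM. At PDRG1 and FOXS1 both EX527 libraries were above both co-culture libraries, as at DUSP15, but by far less. Monoculture lay between the EX527 replicates at both.

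**Figure D2:**
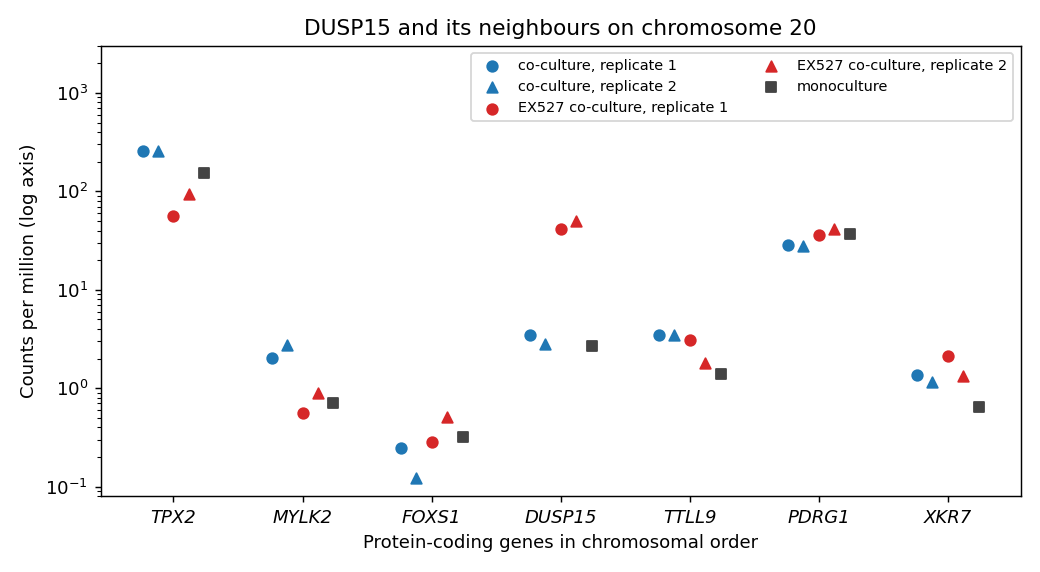
Levels, in CPM on a log axis, of DUSP15 and the protein-coding genes on either side of it, in chromosomal order, with 1 point per library. DUSP15 is the gene whose 2 EX527 points (41.9 and 50.5 CPM) stand far above its other 3, while TPX2 and MYLK2 have their highest points in co-culture.

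The genes with the pattern most like that of DUSP15 were found by the root mean square (RMS) difference of centred log2 CPM over the 5 libraries, among 16373 genes with an official symbol and a mean log2 CPM of at least 0. GNG2, a G protein gamma subunit, was nearest with an RMS of 0.43. Its levels were 0.629 and 0.698 CPM in the co-culture pair, 10.6 and 8.01 in the EX527 pair and 0.277 in monoculture. ANGPTL4, a secreted inhibitor of lipoprotein lipase, followed with an RMS of 0.49. It stood at 10.9 and 11.2 CPM in the co-culture pair, 69.4 and 117 in the EX527 pair and 11.0 in monoculture. Next came WNT4, a WNT ligand of the reproductive tract, with an RMS of 0.53 and levels of 5.97 and 4.81 CPM with EX527 against at most 0.764 CPM elsewhere. FAM225A (RMS 0.66) and TMEM169 (RMS 0.68) completed the 5 nearest. In all 5 genes both EX527 libraries lay above the other 3, which follows from choosing them by likeness to DUSP15. GNG2, WNT4, FAM225A and TMEM169 were at most 0.764 CPM outside EX527, so the EX527 libraries carried them past the bound on the mean.

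DUSP14 (chr17:37489891-37513501, plus strand), the other small phosphatase, was the member whose replicates differed least. It was counted at 566 and 587 reads in the co-culture pair, 1363 and 1285 in the EX527 pair and 689 in monoculture. Its levels were 12.7 and 12.1, then 24.1 and 27.4, and 15.9 CPM in the same order. Both EX527 libraries were above monoculture, which was above both co-culture libraries. Its log2 fold change was 1.05 (SE 0.21) for EX527 co-culture against co-culture, 0.69 (SE 0.26) against monoculture and -0.36 (SE 0.26) for co-culture against monoculture.

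Of the ERK phosphatases, DUSP6 (chr12:89347235-89352501, minus strand) was the 1 gene of the 10 with a lower fitted level with EX527 than in co-culture. It is the cytoplasmic phosphatase of ERK and its transcript is a common readout of ERK activity. Counts of DUSP6 were 5806 and 5755 reads in the co-culture pair, 3510 and 5106 in the EX527 pair and 3824 in monoculture, or 131 and 118, then 62.0 and 109, and 88.1 CPM. Both co-culture libraries were above the other 3, and monoculture lay between the EX527 replicates. The log2 fold change was -0.54 (SE 0.31) for EX527 co-culture against co-culture and 0.50 (SE 0.39) for co-culture against monoculture. Without EX527 replicate 1 the first value was -0.19, and without replicate 2 it was -0.96, so its size rests on which EX527 library is used.

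DUSP5 (chr10:110497907-110511533, plus strand), the nuclear phosphatase of ERK, had the opposite order. It was counted at 134 and 126 reads in the co-culture pair, 352 and 637 in the EX527 pair and 378 in monoculture. The levels were 3.01 and 2.59, then 6.21 and 13.6, and 8.71 CPM. Both co-culture libraries were lowest, and monoculture lay between the EX527 replicates. For DUSP5 the log2 fold change was 1.81 (SE 0.48) for EX527 co-culture against co-culture, -1.64 (SE 0.57) for co-culture against monoculture and 0.17 (SE 0.53) for EX527 co-culture against monoculture. DUSP5P1, a processed copy of DUSP5 on chromosome 1, took 40 reads in EX527 replicate 1 and at most 6 in the others. DUSP7 (chr3:52048919-52056571, minus strand), a cytoplasmic relative of DUSP6, did not follow it. DUSP7 stood at 7.87 and 6.65 CPM in the co-culture pair, 8.19 and 13.2 in the EX527 pair and 10.7 in monoculture, from 324 to 618 reads. Its lower EX527 library was barely above the higher co-culture library, and the log2 fold changes of both main comparisons were small, 0.55 (SE 0.33) and -0.56 (SE 0.40).

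Of the nuclear phosphatases with wider preference, DUSP1 (chr5:172768096-172771195, minus strand) is an immediate-early gene induced by stress, growth factors and glucocorticoids. It was counted at 260 and 179 reads in the co-culture pair, 508 and 637 in the EX527 pair and 628 in monoculture. The levels were 5.84 and 3.68, then 8.97 and 13.6, and 14.5 CPM. The groups did not overlap, with co-culture lowest and monoculture highest. For DUSP1 the log2 fold change was 1.24 (SE 0.37) for EX527 co-culture against co-culture, -1.61 (SE 0.43) for co-culture against monoculture and -0.37 (SE 0.41) for EX527 co-culture against monoculture. DUSP4 (chr8:29333064-29350684, minus strand), an inducible nuclear phosphatase of ERK and JNK, had the same order of groups. Its counts were 89 and 135 reads in the co-culture pair, 169 and 234 in the EX527 pair and 336 in monoculture, or 2.00 and 2.77, then 2.98 and 4.98, and 7.75 CPM. The EX527 libraries lay between the other groups, with log2 fold changes of 0.72 (SE 0.41) against co-culture and -0.97 (SE 0.44) against monoculture. Co-culture against monoculture was -1.69 (SE 0.46).

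Reads at DUSP1 could not be assigned to a strand. RP11-779O18.3, annotated on the opposite strand across the whole of DUSP1, was counted at 267 and 186 reads in the co-culture pair, 529 and 647 in the EX527 pair and 637 in monoculture. That is 101% to 104% of the DUSP1 count in every library, so the reads of the 2 genes cannot be told apart.

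The JNK and p38 phosphatases included the widest range after DUSP15. DUSP8 (chr11:1554051-1572271, minus strand) was counted at 97 and 119 reads in the co-culture pair, 337 and 890 in the EX527 pair and 863 in monoculture. Its levels were 2.18 and 2.44, then 5.95 and 18.9, and 19.9 CPM. Co-culture was low in both libraries and monoculture was highest, with EX527 replicate 2 close to monoculture and replicate 1 nearer to co-culture. The log2 fold change was 2.41 (SE 0.66) for EX527 co-culture against co-culture and -3.10 (SE 0.73) for co-culture against monoculture, which is 8.58-fold lower in co-culture. Without EX527 replicate 1 the first value was 3.04, and without replicate 2 it was 1.40. KRTAP5-AS1, which overlaps the 5′ end of DUSP8 on the opposite strand, was counted at 35 and 35 reads in the co-culture pair, 322 and 224 in the EX527 pair and 226 in monoculture. It equalled 95.5% of the DUSP8 count in EX527 replicate 1 and 25.2% to 36.1% in the other 4 libraries. Processed copies of DUSP8 on chromosome 10 were also counted. DUSP8P5 took 75 and 108 reads in the co-culture pair, 72 and 142 in the EX527 pair and 93 in monoculture, and DUSP8P3 at most 46. In co-culture the DUSP8P5 counts were thus near those of DUSP8 itself, and how reads were divided between the copies is not stated, so the level of DUSP8 is uncertain where it is low.

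DUSP16 (chr12:12473282-12562863, minus strand), a JNK phosphatase, split by EX527 replicate. It was counted at 1311 and 1584 reads in the co-culture pair, 1755 and 2900 in the EX527 pair and 2781 in monoculture, or 29.5 and 32.5, then 31.0 and 61.7, and 64.1 CPM. EX527 replicate 1 lay within the range of co-culture and replicate 2 was next to monoculture. The log2 fold change for EX527 co-culture against co-culture was 0.58 (SE 0.37), but 1.00 without replicate 1 and 0.04 without replicate 2. Co-culture against monoculture was -1.05 (SE 0.43). DUSP10 (chr1:221701424-221742089, minus strand), which acts on JNK and p38, was the least counted member, at 75 to 121 reads. It stood at 1.71 and 1.54 CPM in the co-culture pair, 1.43 and 2.58 in the EX527 pair and 2.33 in monoculture, and the EX527 and co-culture libraries overlapped. Its log2 fold changes, 0.28 (SE 0.47) and -0.52 (SE 0.56) in the 2 main comparisons, were smaller than their errors.

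**Figure D3:**
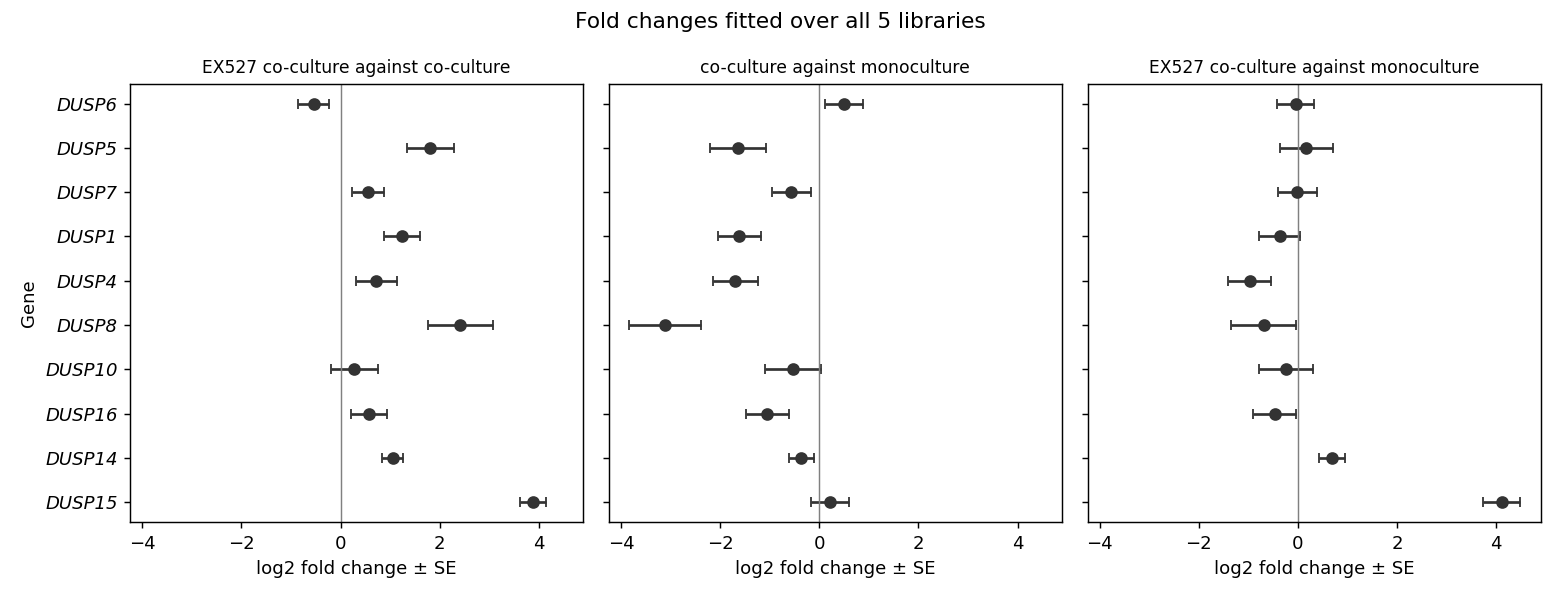
Log2 fold change of each gene with its standard error, from the fit over all 5 libraries, in 3 panels for EX527 co-culture against co-culture, co-culture against monoculture and EX527 co-culture against monoculture. DUSP15 lies at 3.88 and 4.11 in the panels with EX527 and at 0.23 without it, and DUSP8 is the lowest point of the middle panel at -3.10.

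For EX527 co-culture against co-culture, 9 of the 10 values were positive, with a median of 0.89 beside 0.15 over all 34658 genes tested. For co-culture against monoculture 8 were negative, with a median of -0.81 beside 0.05. For EX527 co-culture against monoculture 7 were negative, with a median of -0.14 beside 0.21. Without TMM factors, on plain library sizes, the median of all genes in the comparisons with EX527 was 0.42 and 0.46, and that of the 10 genes 1.15 and 0.09. The signs of DUSP6, DUSP7 and DUSP10 against monoculture, all near 0, turned positive under that scaling and also without EX527 replicate 1. In bulk libraries, fewer cells of a kind and less RNA per cell cannot be told apart.

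The order of libraries gave the same picture without a fit. Both EX527 libraries were above both co-culture libraries for 7 genes (DUSP1, DUSP4, DUSP5, DUSP7, DUSP8, DUSP14 and DUSP15), as for 28.3% of all genes tested, and below them for DUSP6, as for 26.8%. Both co-culture libraries were below monoculture for 8 genes, as for 40.7% of all genes, and above it for DUSP6 and DUSP15, as for 42.8%. The full order co-culture, EX527 co-culture, monoculture held for DUSP1, DUSP4 and DUSP8 and for 6.6% of all genes. EX527 co-culture was above both other groups for DUSP14 and DUSP15 and for 15.2% of all genes. Since these levels chose the genes, nothing is read from the counts beyond the shares printed beside them.

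EX527 replicate 2 was above replicate 1 for all 10 genes, as for 47% of all genes. The ratio of replicate 2 to replicate 1 was smallest for DUSP14, at 1.14, and DUSP15, at 1.21. It was 1.51 to 1.80 for DUSP1, DUSP4, DUSP6, DUSP7 and DUSP10, 1.99 for DUSP16, 2.18 for DUSP5 and 3.18 for DUSP8. The median over 31915 genes was 0.980. The EX527 value of a phosphatase other than DUSP14 and DUSP15 therefore depends on the library.

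At the threshold of 0.05 on the Benjamini-Hochberg adjusted p of edgeR's quasi-likelihood test, no gene was called in any comparison, so 0% of all genes and none of the 10 were called for EX527 co-culture against co-culture, for co-culture against monoculture (0%) and for EX527 co-culture against monoculture (0%). The smallest adjusted p over all genes was 0.0748, 0.118 and 0.614 in that order. Before adjustment, 6705, 5522 and 2551 genes were under 0.05, which is 19.3%, 15.9% and 7.36% of those tested. Among them were DUSP1, DUSP5, DUSP8, DUSP14 and DUSP15 in the first comparison, DUSP1, DUSP4, DUSP5 and DUSP8 in the second and DUSP14 and DUSP15 in the last. limma-voom likewise called none in any comparison. DESeq2 called DUSP1, DUSP5, DUSP8, DUSP14 and DUSP15 higher with EX527 than in co-culture, as 5.45% of all genes, and DUSP1, DUSP5 and DUSP8 lower in co-culture than in monoculture, as 4.35%. It called 0.289% of genes and none of the 10 for EX527 co-culture against monoculture.

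Leaving out either EX527 library changed the calls. Without EX527 replicate 1, the first comparison called 21.7% of genes higher, with 8 of the 10 (all but DUSP6 and DUSP10). Without replicate 2 it called 39.1% higher, with DUSP1, DUSP5, DUSP8, DUSP14 and DUSP15, and 31.1% lower, with DUSP6. Co-culture against monoculture then called DUSP1, DUSP4, DUSP5, DUSP7, DUSP8, DUSP14 and DUSP16 lower, as 27.1% of genes without replicate 1 and 22.5% without replicate 2. It called DUSP6 higher in both, as 26.9% and 22.1%. For EX527 co-culture against monoculture the 2 EX527 libraries gave opposite calls for DUSP5 and DUSP6. Without replicate 1, 14.7% of genes were called higher with EX527, with DUSP5, DUSP6, DUSP14 and DUSP15, and 19.1% lower, with DUSP4. Without replicate 2, 33.4% were called higher, with DUSP14 and DUSP15, and 28.8% lower, with DUSP1, DUSP4, DUSP5, DUSP6, DUSP8 and DUSP16. In these fits the lone EX527 library and the lone monoculture library are assumed to vary like the co-culture pair. EX527 co-culture against monoculture is there 1 library against 1.

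Per kilobase of exon, DUSP6 was the most abundant of the 10 in every group, with mean levels of 32.2 CPM per kb in co-culture, 22.1 with EX527 and 22.8 in monoculture. In co-culture it was followed by DUSP14 at 5.08, DUSP16 at 4.35, DUSP1 at 2.36, DUSP7 at 1.28, DUSP5 at 1.10, DUSP15 at 0.847, DUSP10 at 0.574, DUSP8 at 0.466 and DUSP4 at 0.328 CPM per kb. The replicate ranges of DUSP7 and DUSP5 overlapped there, and those of the other neighbours in the order did not. With EX527, DUSP15 moved to the second place at 12.5 CPM per kb, next to DUSP14 at 10.5. DUSP16 and DUSP1 followed at 6.50 and 5.60, with overlapping replicates. In monoculture DUSP15 was the lowest of the 10, at 0.722 CPM per kb, below DUSP10 at 0.824 and DUSP4 at 1.06. Exon lengths are from GENCODE 44.

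Opposite-strand annotation touched DUSP6 as well. ENSG00000274021, a lincRNA gene that overlaps its 5′ end, was counted at 2031 and 1874 reads in the co-culture pair, 321 and 1901 in the EX527 pair and 1123 in monoculture. The share of the DUSP6 count was 9.15% in EX527 replicate 1 and 29.4% to 37.2% in the other 4 libraries. At DUSP8 and DUSP6 alike, the ratio of the overlapping gene to the phosphatase therefore differed in EX527 replicate 1, upward at DUSP8 and downward at DUSP6. Its part in the EX527 values was not tested.

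**Figure D4:**
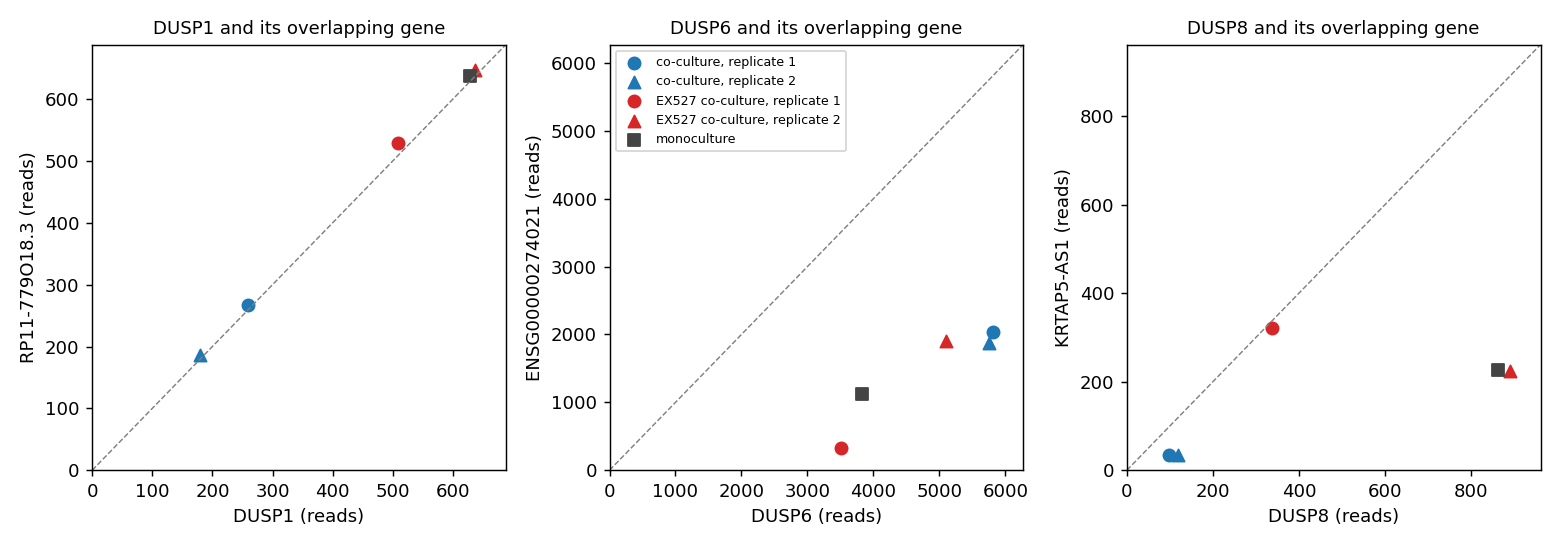
Reads of the overlapping opposite-strand gene (vertical axis) against reads of DUSP1, DUSP6 and DUSP8 (horizontal axis) in each library, with the dashed line marking equal counts. The DUSP1 points lie close to the line, at 101% to 104%, while EX527 replicate 1 departs from the other 4 libraries at DUSP6 and DUSP8.

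The rest of the family gave a background for these levels. No gene of the lists described from here on was called in any comparison by edgeR. DUSP9, a classical phosphatase of ERK, stood at 3.55 and 2.69 CPM in the co-culture pair, 3.99 and 5.92 in the EX527 pair and 10.9 in monoculture. That is the order of DUSP1, DUSP4 and DUSP8, with log2 fold changes of 0.66 (SE 0.36) and -1.80 (SE 0.39) in the 2 main comparisons. DUSP2, an inducible nuclear phosphatase best known from immune cells, ranged from 1.92 to 3.60 CPM and its groups overlapped. Of 13 further small phosphatases 12 could be tested, and their median was 0.12 for EX527 co-culture against co-culture and -0.07 for co-culture against monoculture. DUSP11, an RNA phosphatase, was at 15.2 and 17.8 CPM in the co-culture pair, 31.1 and 23.4 in the EX527 pair and 38.0 in monoculture. DUSP18, a phosphatase associated with mitochondria, was at 16.2 and 20.3 CPM in the co-culture pair, 8.56 and 11.7 in the EX527 pair and 10.3 in monoculture, an order like that of DUSP6. DUSP26, named after its values were seen, stood at 0.607 and 0.780 CPM in the co-culture pair, 2.88 and 3.49 in the EX527 pair and 1.34 in monoculture. Its log2 fold change for EX527 co-culture against co-culture was 2.18 (SE 0.43), and its order of groups was that of DUSP14. STYXL1, a catalytically inactive relative, was at 28.8 to 31.2 CPM in the 4 libraries with adipocytes and at 14.7 CPM in monoculture.

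**Figure D5:**
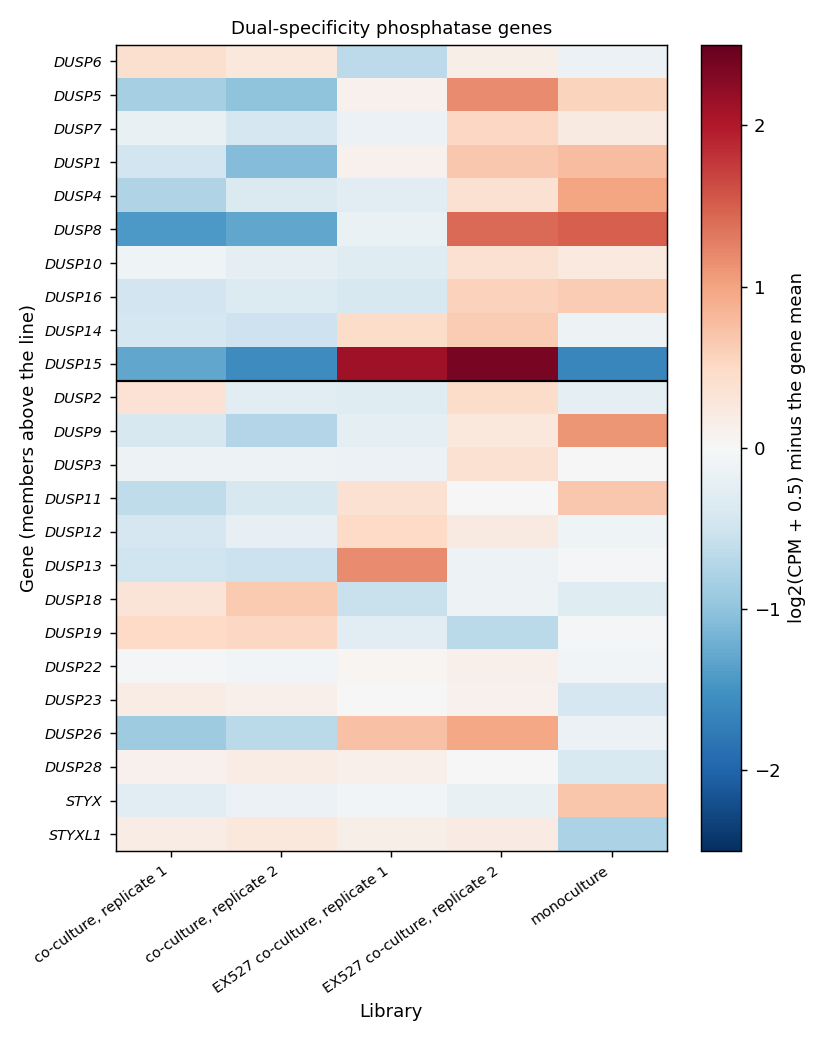
Log2 of CPM plus 0.5, minus the mean of the gene, for the 10 genes (above the line) and other dual-specificity phosphatase and STYX genes (below it) in each library. Red is above and blue below the mean of the gene. The 2 EX527 columns of DUSP15 are the darkest red, and DUSP8 is blue in co-culture and red in EX527 replicate 2 and monoculture.

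The kinases these enzymes act on were listed for comparison. Over 14 MAP kinases the median log2 fold change was -0.23 for EX527 co-culture against co-culture and 0.62 for co-culture against monoculture. MAPK3, an ERK kinase, had its highest levels in co-culture, as DUSP6 did. It stood at 66.1 and 58.0 CPM in the co-culture pair, 22.5 and 42.8 in the EX527 pair and 31.9 in monoculture. MAPK6, an atypical kinase, had the order of DUSP1, DUSP4 and DUSP8, at 78.9 and 76.8, then 96.1 and 125, and 211 CPM. Over 7 MAPK kinases the medians were -0.26 and -0.09, and over 22 RAS, RAF and MAP3 kinase genes they were -0.07 and -0.61. MAP2K3, a kinase of p38, was at 41.5 and 41.3 CPM in the co-culture pair, 13.5 and 27.7 in the EX527 pair and 31.8 in monoculture. Phosphatases of other classes that act on MAP kinases (10 genes) had medians of 0.12 and -0.18, and MAPK-activated kinases (10 genes) of -0.10 and -0.06.

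The 13 other feedback genes of the ERK pathway were lower in fitted level with EX527 than in monoculture and were split for EX527 co-culture against co-culture. None passed the test. They had a median of 0.00 for EX527 co-culture against co-culture and -0.51 for co-culture against monoculture. For EX527 co-culture against monoculture all 13 were negative (median -0.62 beside 0.21 over all genes). That was not particular to the feedback genes. In the same comparison 21 of 22 RAS, RAF and MAP3 kinase genes (median -0.55) and 6 of 7 MAPK kinases (median -0.39) were negative. The 14 MAP kinases were split, with 7 positive and 7 negative. SPRY4, an inhibitor of RAS signalling, was at 110 and 106 CPM in the co-culture pair, 24.6 and 69.5 in the EX527 pair and 99.1 in monoculture. ERRFI1, an inhibitor of the EGF receptor, was at 20.7 and 22.4, then 31.3 and 51.6, and 75.6 CPM, the order of DUSP1. Of 18 output factors and targets of ERK (medians -0.21 and -0.08), JUN and EGR1 lay in opposite directions. JUN, a subunit of AP-1, stood at 18.9 and 17.7 CPM in the co-culture pair, 55.0 and 96.4 in the EX527 pair and 69.9 in monoculture. EGR1, an immediate-early zinc finger factor, stood at 341 and 301, then 69.3 and 123, and 135 CPM. So JUN was lowest in co-culture like DUSP1, DUSP5 and DUSP8, and EGR1 was highest there like DUSP6. FOSL1, named after its values were seen, was also lowest in co-culture. It stood at 0.337 and 0.370 CPM in the co-culture pair, 5.44 and 4.66 in the EX527 pair and 7.28 in monoculture. Of the 18 log2 fold changes for EX527 co-culture against co-culture, 7 were positive and 11 negative.

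Levels of cell type markers also differed between the groups. The summed level of 14 epithelial and endometrial markers was 7012 and 6396 CPM in the co-culture pair, 1584 and 2707 in the EX527 pair and 2625 in monoculture, with all 14 tested and none absent. KRT8 weighed most in that sum, at 2674 and 2287, then 332 and 605, and 628 CPM. For EX527 co-culture against co-culture 12 of the 14 had a negative and 2 a positive log2 fold change. The summed level of 17 adipocyte markers was 176 and 167, then 150 and 217, and 259 CPM. PNPLA2 weighed most there, at 115 and 104, then 57.1 and 98.8, and 109 CPM. The defining adipocyte transcripts ADIPOQ, FABP4 and LEP were near 0, at no more than 0.900, 0.600 and 0.583 CPM in any library, each highest in EX527 replicate 1. For co-culture against monoculture, 8 of the 17 had a positive and 9 a negative log2 fold change. PPARG, at 7.40 and 6.90 CPM in the co-culture pair and 42.7 in monoculture, and LPL, at 19.6 and 20.5 against 72.1, were higher in the library without adipocytes, while CFD, at 11.0 in both co-culture libraries against 5.26, was lower there. The summed level of 13 fibroblast and preadipocyte markers was 165 and 153 CPM in the co-culture pair, 133 and 312 in the EX527 pair and 237 in monoculture. A few genes with unlike orders made up most of it. COL1A2 was at 20.7 and 20.4, then 70.3 and 189, and 122 CPM, and COL3A1 at 27.7 and 25.9, then 5.17 and 9.58, and 26.3 CPM. For EX527 co-culture against co-culture 11 of the 13 log2 fold changes were positive, most at genes with few reads, and 2 negative. Of the positive genes, only COL1A2 and FBN1 were higher in EX527 replicate 2 than in replicate 1. At the others replicate 1 was higher, with 123 against 4 reads at FAP, 107 against 8 at PDGFRB and 70 against 0 at DCN. The part of these markers in the levels of the phosphatases was not tested.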

How the data were processed

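The authors deposited a table of raw read counts per gene as well as those counts scaled by a size factor for each library (normalized signal). The raw counts were used here. STAR v2 and GRCh38.p7 were used for mapping, per the labels' protocols, and the submitters' processing notes also list FastQC, MultiQC, fastp, featureCounts and DESeq2. Neither annotation nor strand setting is stated there, so reads of opposite-strand genes cannot be told apart.

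Genes passing filterByExpr at a minimum count of 10 were scaled by TMM and tested by the quasi-likelihood F-test of edgeR 4.0.16 in R 4.3.3, in 1 fit over all 5 libraries with 1 coefficient per group and 2 residual degrees of freedom. The Benjamini-Hochberg adjustment ran over 34658 genes, with a threshold of 0.05. The SE of a fold change is its size divided by the square root of F. Log2 CPM used a prior count of 2. DESeq2 1.42.0 and limma-voom (limma 3.58.1) were alternatives, with other scalings, no filter, each replicate left out and a replicate block.

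The 10 genes and all lists were chosen with earlier results of these data known. All 10 are described whatever their values. From each list, up to 3 genes with the largest fold change, a mean log2 CPM of at least 2 and groups that do not overlap could be named, and some of these are. Replicates were not copies of 1 library: the mean chi-square was 5.95 over 26474 genes in co-culture and 152 over 31265 with EX527. The floor in reads covers counting error only. The SE also holds the spread between replicates of both co-culture groups, to which monoculture, with n = 1, adds nothing. Positions are from GENCODE 44 and may differ from the annotation used for counting.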

Additional observations from a re-analysis of the deposited data

How the results depend on the processing

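Against monoculture the EX527 value of DUSP5 was 0.60 without EX527 replicate 1 and -0.49 without replicate 2, and that of DUSP6 was 0.26 and -0.51, each called in both fits, so these directions turned with the library. The fold changes of the 10 genes took 320 values under alternatives. Of these, 306 stayed within 1 SD of the reported value, 14 moved further and 8 changed sign. That SD is the pooled SD of log2 CPM between replicates of both co-culture groups. It widens with the gap between the EX527 replicates. Staying within it is therefore no measure of stability when a replicate is left out. No gene was called over the 5 libraries by the reported edgeR fit, so the counts of moved values say nothing of called values. Counts of calls depended on the tool and on the EX527 libraries. For EX527 co-culture against co-culture DESeq2 called 3339 genes, 9.63% of those tested (5 of the 10 described). The older dispersion estimate called 21 of 34658 genes (1 of the 10, DUSP15). For co-culture against monoculture DESeq2 called 2432 genes (3 of the 10), and for EX527 co-culture against monoculture 100 genes. Leaving out each replicate in turn gave 0 to 24074, 0 to 15859 and 0 to 21328 genes in the 3 comparisons, and 0 to 8 of the 10 in each. The 0 came from leaving out a co-culture library, and the high counts from leaving out an EX527 library (13001 and 24074 genes in the first comparison without replicate 1 and replicate 2).

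Both co-culture groups share replicate numbers. Deviations of same-numbered libraries tended to opposite directions, with a correlation of -0.36 over 11232 genes, all read in the same 4 libraries. The labels give same-numbered libraries no shared batch, so the numbers are not taken to pair the samples. In the 4 libraries of both groups 28143 genes were tested. The fit without a replicate block called 0 of them, and the fit with the replicate block called 859 of them (2 of the 10). With the numbers crossed, an alternative chosen after seeing the data, the block called 3382 of the 28143 genes (5 of the 10). Crossing the numbers turns the sign of the correlation, so the larger count says nothing of pairing. Each of the 10 genes had 75 reads or more in every library, and monoculture has n = 1.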
